A study of Homo sapiens with 6 samples.

Results

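Small nucleolar RNAs (snoRNAs), the related small Cajal body RNAs (scaRNAs) and the long non-coding genes that carry them were examined in SW480 cells, a line from a human colon adenocarcinoma, after knockdown of the chromatin-remodelling protein MORC2. Members were chosen by symbol alone: SNORD for box C/D snoRNAs, SNORA for box H/ACA snoRNAs, SCARNA for scaRNAs, each followed by a digit, and, as host genes, SNHG followed by a digit plus GAS5. This gave 459 of the 56303 genes counted, namely 289 box C/D snoRNAs, 123 box H/ACA snoRNAs, 24 scaRNAs and 23 host genes. One group, shCtrl, carried a non-silencing short hairpin RNA and the other, shMORC2, a hairpin against MORC2, and each had 3 libraries of messenger RNA. No further allele, agent or time point separated them, and the labels call the shCtrl cells WT. Both were puromycin-selected lines made with lentivirus, described in the study as stable clonal lines. With 1 hairpin and 1 control line, a difference between lines cannot be told apart from an effect of the knockdown.

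Box C/D snoRNAs guide ribose methylation, and box H/ACA snoRNAs guide pseudouridylation, of ribosomal RNA, while scaRNAs guide the same changes in spliceosomal RNA. In human cells most are cut out of the introns of a host transcript after splicing, and some hosts, the SNHG genes, make a spliced RNA with little or no protein product that is often removed by nonsense-mediated decay. Mature snoRNAs have no long poly(A) tail, so an mRNA library holds only the part of them, or of the host RNA around them, that was carried through selection.

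MORC2 itself was read at 2021, 1964 and 2007 counts in the shCtrl libraries and at 1554, 1219 and 1157 in the shMORC2 libraries. All shMORC2 libraries lay below all shCtrl libraries, by −0.63 ± 0.095 on the log2 scale (shMORC2 minus shCtrl, SE, n = 3 and 3; edgeR adjusted p = 0.000216). Library totals ran from 42092664 to 43434425 counts. The epithelial markers EPCAM and KRT8 stood at 475 to 540 and at 12161 to 16794 CPM (counts scaled to a common library size). The intestinal markers CDH17 and LGR5 were low, at 0.426 to 1.41 and 1.37 to 6.57 CPM. Of the markers of other cells, PTPRC (leukocyte), COL1A2 (fibroblast) and GFAP (glia) reached 0.141, 0.228 and 0.528 CPM at most. ALB (hepatocyte) stood at 0.336 to 2.93 CPM. PECAM1 (endothelium) and COL1A1 (fibroblast) were not near 0, at 13.6 to 19.4 and 8.10 to 10.4 CPM. The library shCtrl 3 stood apart in some RNAs without a poly(A) tail, though not in all of them. RN7SK, an RNA that holds back transcription elongation, had 202, 210 and 9924 counts in shCtrl 1 to 3 and 254, 239 and 281 in the shMORC2 libraries. Where leaving out shCtrl 3 ended the call of a gene named here, the value without it is given.

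Reads over small RNAs were few. Among the 436 snoRNAs and scaRNAs, 139 box C/D, 106 box H/ACA and 22 scaRNA entries had at least 1 count in some library, and 53, 28 and 7 of them passed the filter on low counts (filterByExpr) and were tested. The median tested box C/D snoRNA had a mean of 18.8 counts per library, against 471 for the tested host genes. Of the 150 box C/D snoRNAs without a count, 125 lay inside SNHG14 or SNHG23, which span the clustered snoRNA repeats of imprinted regions on chromosomes 15 and 14. SNHG14 itself had 233 to 326 counts in each library, and SNHG23 had 2 in all. A count of 0 over a library allows up to 3 reads by counting error alone. Symbols also pooled loci: 34 box C/D, 51 box H/ACA and 10 scaRNA entries combined copies on more than 1 chromosome, so their values belong to no single locus.

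Most tested small RNAs overlapped an exon of a longer gene. Of the 88 tested snoRNAs and scaRNAs, 45 overlapped an exon of a host gene on the same strand, 11 lay only in an intron, 6 lay on 1 chromosome without a host, and 26 combined chromosomes. Genes nested in an exon were given counts too, which may be shared with the outer gene. Single-exon genes lying wholly inside an exon of another gene with at least 500 counts were examined. At least 1 count was found for 195 of 207 (94.2%) on the same strand and 166 of 178 (93.3%) on the opposite strand. SNORA17, which combines several loci, and SNORA17A, inside SNHG7, had the same count in all 6 libraries. The count of an exonic snoRNA can thus hold fragments of the host RNA, and since the strand setting is not given, a nested RNA and an antisense partner cannot be told apart.

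Across all genes, 8301 of 21005 tested (39.5%) were called at an edgeR adjusted p under 0.05, 19.9% higher and 19.6% lower in shMORC2. Box C/D snoRNAs were called mostly lower: of 53 tested, 1 rose and 12 fell (24.5%), with a median log2 fold change of −0.43 against −0.01 for all genes. Of 28 box H/ACA snoRNAs, 1 rose and 2 fell (10.7%; median −0.37). Of 7 scaRNAs, 2 fell (28.6%; median −0.45). Of 21 host genes, 1 rose and 7 fell (38.1%; median −0.15). The share called was thus below that of all genes for the small RNAs and close to it for the hosts, while the medians of all 4 classes lay below 0. The small RNAs also had far lower counts than the hosts, and the part of depth in these shares was not tested.

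Without shCtrl 3, 6686 of 21005 genes (31.8%) were called. In that fit 8 box C/D snoRNAs fell and none rose, 1 box H/ACA snoRNA rose and 1 fell, the same number of scaRNAs fell (2), and among hosts 2 rose and 7 fell. With the replicate number as a block, 14 box C/D snoRNAs fell and none rose, and among box H/ACA snoRNAs 2 rose and 3 fell. The share of all genes called with the block was not counted. Groups did not overlap for 10555 genes (50.2%), and for 17 of the 53 box C/D snoRNAs, 7 of the 28 box H/ACA snoRNAs, 3 of the 7 scaRNAs and 10 of the 21 hosts.

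**Figure D1:**
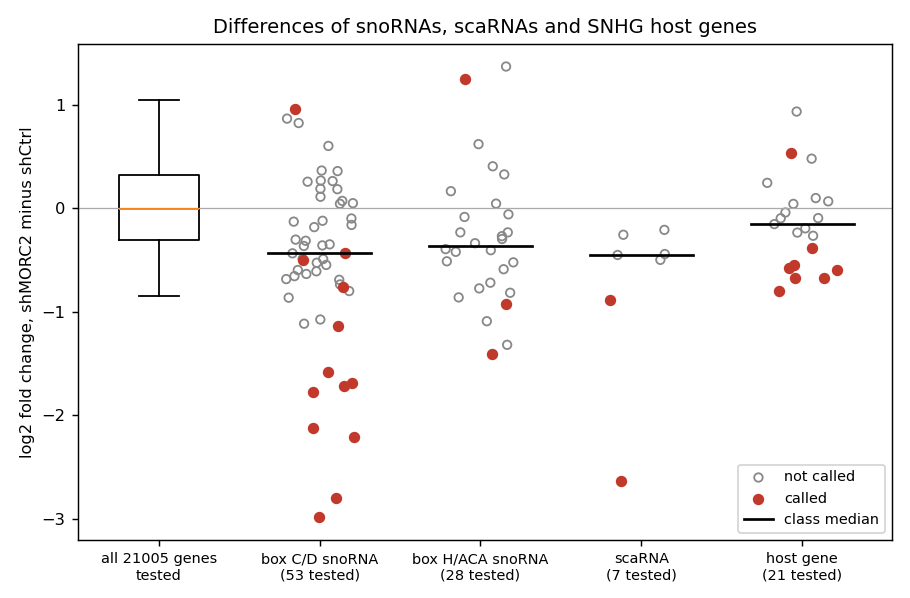
Log2 fold changes (shMORC2 minus shCtrl) of every tested member by class, called members in red, with a box of all 21005 tested genes (quartiles, and whiskers at the 5th and 95th percentiles). The class medians of −0.43, −0.37, −0.45 and −0.15 lie below the all-gene median of −0.01, and the lowest points are box C/D snoRNAs and 1 scaRNA.

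The summed level of a class, in CPM over all its members, was described without a test. Box C/D snoRNAs summed to 81.7, 88.2 and 144.9 CPM in shCtrl 1 to 3 and to 64.0, 63.2 and 57.0 CPM in the shMORC2 libraries. The groups did not overlap, and shCtrl 3 was the highest library. The group means were 105 ± 34.7 and 61.4 ± 3.84 CPM (SD, n = 3 each), a log2 ratio of −0.77, which was −0.47 without shCtrl 3. Without the 5 copies of U3, described next, the means were 74.8 ± 3.28 and 56.4 ± 2.85 CPM and the log2 ratio was −0.41.

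Box H/ACA snoRNAs summed to 27.1 ± 0.815 CPM without and 22.5 ± 1.03 CPM with the MORC2 hairpin (SD, n = 3 each; log2 ratio −0.27). The scaRNAs summed to 9.79 ± 0.909 and 6.84 ± 0.102 CPM (log2 ratio −0.52). Both classes were lower in every shMORC2 library than in any shCtrl library, and shCtrl 3 was the lowest shCtrl library in both. The host genes summed to 556 ± 44.5 and 548 ± 19.6 CPM (log2 ratio −0.02), a difference smaller than the spread between libraries. In bulk RNA, a lower level in each cell and fewer cells with that level cannot be told apart.

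**Figure D2:**
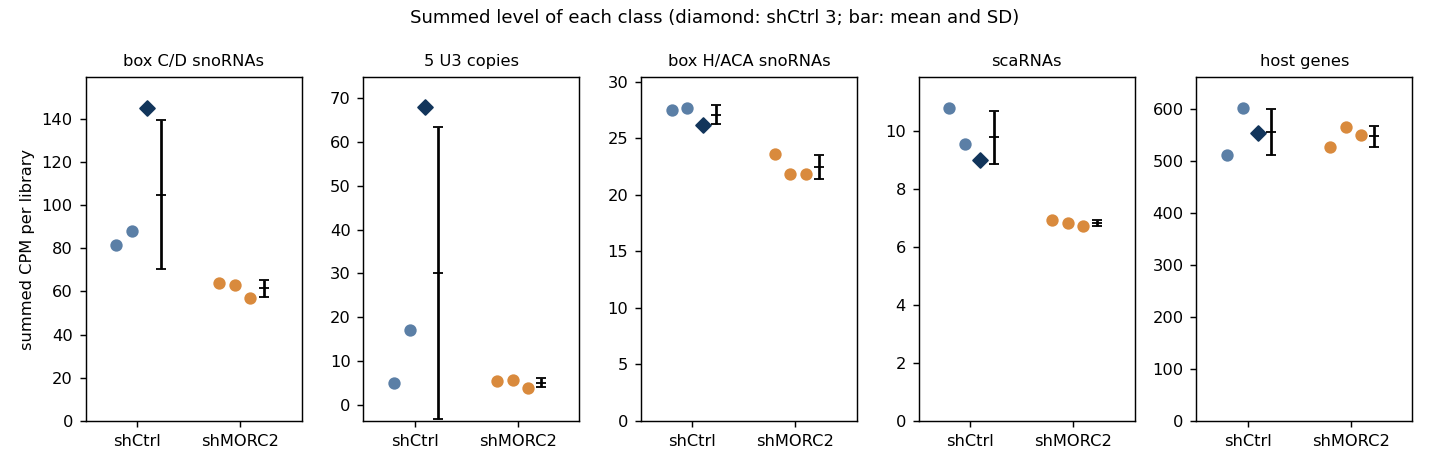
Summed CPM of each class, and of the 5 U3 copies, in each library (dots; diamond, shCtrl 3) with the mean and SD of the 3 libraries per group, each panel on its own scale. Only box C/D snoRNAs and U3 have their highest value in shCtrl 3, at 144.9 and 68.0 CPM, while H/ACA snoRNAs and scaRNAs are lower in all 3 shMORC2 libraries.

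U3 is the abundant box C/D snoRNA that pairs with the ribosomal precursor and is needed for its first cleavages, and it is made from its own genes rather than from introns. Its gene copies SNORD3A, SNORD3B-1, SNORD3B-2, SNORD3C and SNORD3D lie together on chromosome 17. Over the first 217 bases, the length of the SNORD3D transcript, SNORD3B-1, SNORD3B-2 and SNORD3C each differed from SNORD3A at 1 base and SNORD3D at 3, so reads from the U3 RNA proper cannot be assigned to a copy with confidence. Sequences of 3 copies are shown because the largest decreases among called box C/D snoRNAs were in U3 copies, though not in every copy. SNORD3A, for example, fell less (−1.69) than SNORD27 (−2.12). Capitals in the sequences mark TGATG, the core of box C, and CTGA, box D. The sequences were read from GENCODE v44 transcripts (GRCh38) at chr17:19188016-19188232 on the plus strand (SNORD3A), and on the minus strand at chr17:19190029-19190245 (SNORD3C) and chr17:19112420-19112636 (SNORD3D).
SNORD3A: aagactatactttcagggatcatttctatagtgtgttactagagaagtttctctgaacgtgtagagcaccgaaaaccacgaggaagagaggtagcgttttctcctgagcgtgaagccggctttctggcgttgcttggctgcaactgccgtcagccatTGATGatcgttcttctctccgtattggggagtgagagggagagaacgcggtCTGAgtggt
SNORD3C: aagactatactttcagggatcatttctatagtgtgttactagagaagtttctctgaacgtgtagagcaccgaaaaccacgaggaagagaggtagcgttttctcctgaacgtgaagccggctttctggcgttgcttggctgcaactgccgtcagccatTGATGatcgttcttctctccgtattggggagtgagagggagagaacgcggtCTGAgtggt
SNORD3D: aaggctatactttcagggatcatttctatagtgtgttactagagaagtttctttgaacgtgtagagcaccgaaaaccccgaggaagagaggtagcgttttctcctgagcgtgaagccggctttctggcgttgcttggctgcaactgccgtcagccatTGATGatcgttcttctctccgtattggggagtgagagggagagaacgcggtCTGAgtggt

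SNORD3C had 99, 349 and 1968 counts in shCtrl 1 to 3 and 142, 122 and 94 in the shMORC2 libraries. The groups overlapped, since shCtrl 1 lay within the shMORC2 range. It differed by −2.80 ± 0.75 (log2, SE; edgeR adjusted p = 0.00928), and without shCtrl 3 it was −0.91 and not called (adjusted p = 0.0753). SNORD3B-2, with 16, 60 and 526 against 26, 38 and 14 counts, gave a like picture: −2.99 ± 0.91 (edgeR adjusted p = 0.0193), and −0.54 without shCtrl 3 (adjusted p = 0.458). Both calls were also lost without shMORC2 3. SNORD3A, with 42, 204 and 119 against 42, 51 and 22 counts, changed by −1.69 ± 0.46 (edgeR adjusted p = 0.0101) and stayed called without shCtrl 3 (adjusted p = 0.0200), although its groups overlapped. Its call was lost without shCtrl 2 (−1.10, adjusted p = 0.0802) and without shMORC2 3 (−1.41, adjusted p = 0.0617).

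Only SNORD3D separated the groups completely among the called U3 copies. It had 55, 89 and 157 counts in shCtrl and 16, 16 and 34 in shMORC2, a change of −2.21 ± 0.41 on the log2 scale (SE, with an edgeR adjusted p of 0.000895) that was called in all 6 fits leaving out 1 library. It lies in an exon of a longer non-coding gene without an approved symbol, and its reads made up 98.4% of that gene's counts. SNORD3B-1, with 10, 23 and 29 against 18, 11 and 0 counts, was not called (−1.12, edgeR adjusted p = 0.214). Summed over the 5 copies, U3 stood at 5.06, 17.1 and 68.0 CPM in shCtrl and 5.50, 5.72 and 3.85 CPM in shMORC2, a log2 ratio of −2.58, or −1.14 without shCtrl 3. The spread among the control libraries was far wider than that among the knockdown libraries.

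Some other RNAs that lack a poly(A) tail moved in the same libraries. RN7SL1, an RNA of the signal recognition particle, had 268, 283 and 2002 counts in shCtrl and 260, 216 and 270 in shMORC2, and its log2 fold change of −1.82 became −0.14 without shCtrl 3. RN7SL2, the other gene of that RNA, had 578, 575 and 3738 against 308, 242 and 300 counts and did not overlap between groups, with −2.57 (edgeR adjusted p = 0.00357) and, without shCtrl 3, −1.02 (edgeR adjusted p = 0.000102). RMRP, the RNA of a ribonuclease that acts on ribosomal precursors, had 32, 26 and 64 counts against 6, 0 and 0, and was lower in shMORC2 with shCtrl 3 (−4.29, edgeR adjusted p = 0.000525) and without it (−3.77, edgeR adjusted p = 0.00220). RPPH1, the RNA of ribonuclease P, was not called (−0.18, edgeR adjusted p = 0.283). The carry-over of tailless RNA into each library was not measured, and its part in the U3 values was not tested.

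The sequences of the other box C/D snoRNAs that the results turn on are given with the same marking, since they show how short the counted features are and where their ends lie. Of the 289 box C/D members, 272 had a GENCODE sequence of at most 300 bases, of which 85.7% held TGATG in the first 25 bases and 93.0% CTGA in the last 25. They lie at chr17:16439505-16439576 plus (SNORD49B), chr20:2656939-2657010 plus (SNORD57), chr11:75400391-75400538 plus (SNORD15A), chr19:49491175-49491260 plus (SNORD35A), chr17:7576811-7576952 plus (SNORD10), chr6:31541101-31541178 minus (SNORD84) and, for 1 of 2 loci of SNORD22, chr11:62852910-62853035 minus, all in exons of a host gene in the deposited annotation.
SNORD49B: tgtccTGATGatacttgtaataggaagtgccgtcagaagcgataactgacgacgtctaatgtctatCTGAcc
SNORD57: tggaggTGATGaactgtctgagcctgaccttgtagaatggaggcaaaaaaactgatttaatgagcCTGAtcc
SNORD15A: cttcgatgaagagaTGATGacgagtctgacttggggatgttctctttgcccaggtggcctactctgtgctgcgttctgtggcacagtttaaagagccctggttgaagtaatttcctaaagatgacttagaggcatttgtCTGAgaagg
SNORD35A: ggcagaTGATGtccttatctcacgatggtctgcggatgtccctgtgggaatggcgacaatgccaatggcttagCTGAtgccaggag
SNORD10: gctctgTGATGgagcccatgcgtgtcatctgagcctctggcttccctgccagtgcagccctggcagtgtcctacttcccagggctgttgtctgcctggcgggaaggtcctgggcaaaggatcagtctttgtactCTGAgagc
SNORD84: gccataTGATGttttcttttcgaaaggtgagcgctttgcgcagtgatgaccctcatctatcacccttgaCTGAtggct
SNORD22: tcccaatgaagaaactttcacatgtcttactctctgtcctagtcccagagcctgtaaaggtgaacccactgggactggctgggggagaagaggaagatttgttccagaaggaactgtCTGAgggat
SNORD22 held CTGA but no TGATG.

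SNORD49B was the most abundant box C/D snoRNA, with 20.2% of the class's counts and a mean of 273 RPKM in shCtrl (RPKM is the deposited read count scaled by exon length and library total). It had 686, 872 and 937 counts in shCtrl and 558, 640 and 593 in shMORC2. Every shMORC2 library lay below every shCtrl library, and the difference was −0.50 ± 0.13 (log2, SE; edgeR adjusted p = 0.00877; 0.0519 without shCtrl 3). SNORD57, which guides methylation of small-subunit ribosomal RNA from NOP56, had 202, 166 and 181 against 150, 146 and 115 counts and fell by 0.43 on the log2 scale (edgeR adjusted p = 0.0414; 0.106 without shCtrl 3). That call was kept in only 1 of the 6 fits without a library.

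SNORD86 and SNORD58B were the other box C/D snoRNAs among the 4 with the highest RPKM. SNORD86, also in NOP56, had 882, 424 and 613 against 603, 459 and 459 counts (−0.35, edgeR adjusted p = 0.168), and SNORD58B, in RPL17, had 111, 155 and 148 against 107, 113 and 90 (−0.43, adjusted p = 0.0826). Both overlapped between groups and were not called, but passed with the replicate block (adjusted p = 0.0161 and 0.0408).

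SNORD22, which takes part in small-subunit RNA maturation and lies in SNHG1, had 90, 76 and 71 counts in shCtrl and 56, 47 and 38 in shMORC2. The groups did not overlap (−0.76 ± 0.22 SE, edgeR adjusted p = 0.0139), and the call was lost without shMORC2 3 (adjusted p = 0.0616). SNORD15A, a guide for large-subunit RNA from RPS3, had 24, 73 and 38 against 20, 28 and 14 counts, which overlapped (−1.13 ± 0.42, edgeR adjusted p = 0.0460; 0.0597 without shCtrl 3), and was called in 2 of the 6 fits without a library.

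The remaining called box C/D snoRNAs had means under 30 counts per library and are named only because they were called, after their values were seen. SNORD35A, a guide for large-subunit RNA, had 27 counts in each shCtrl library and 8, 11 and 8 in shMORC2 (−1.59 ± 0.37 SE, edgeR adjusted p = 0.00406). SNORD10 had 34, 33 and 25 against 12, 5 and 10 (−1.77 ± 0.39, edgeR adjusted p = 0.00281). These 2, with SNORD27 (15, 14 and 11 against 5, 1 and 3 counts, combined over 2 chromosomes), separated the groups and were called in all 6 fits without a library. SNORD19B had 26, 14 and 13 against 5, 5 and 6 counts and was called in 5 of the 6. SNORD84 was the only box C/D snoRNA that rose, from 13, 13 and 12 to 24, 23 and 28 counts (0.96 ± 0.34, edgeR adjusted p = 0.0401; 0.0951 without shCtrl 3). Its groups did not overlap, but the call was lost in each of the 6 fits and with the replicate block (adjusted p = 0.0517).

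**Figure D3:**
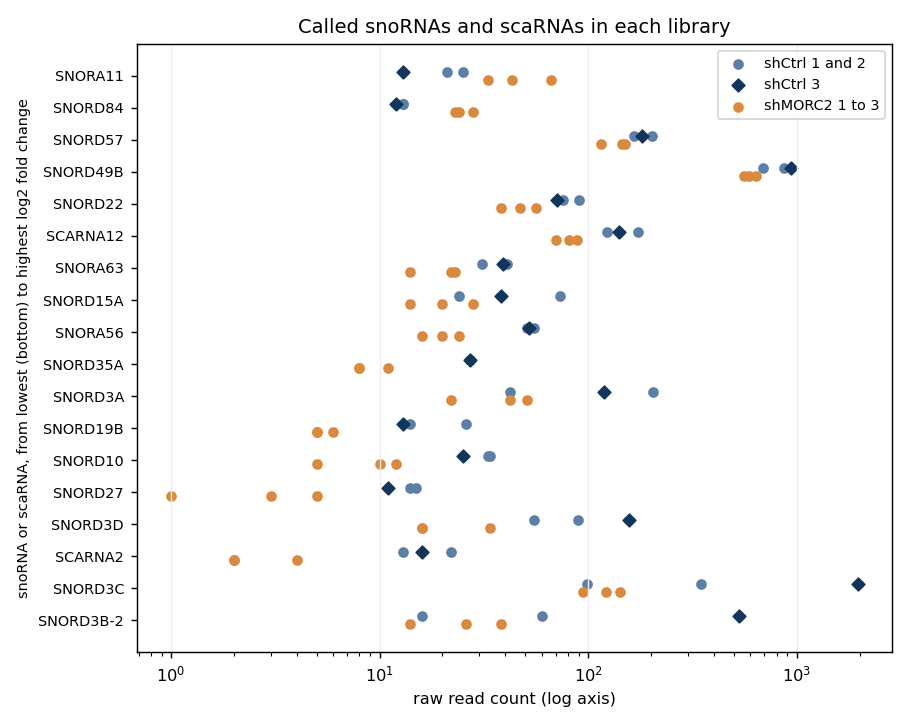
Raw counts (log axis) of the 18 called snoRNAs and scaRNAs in each library, shCtrl in blue (diamond, shCtrl 3) and shMORC2 in orange, ordered by log2 fold change. For SNORD3C and SNORD3B-2 the groups overlap and shCtrl 3 is by far the highest library (1968 and 526 counts). For SNORD35A, SNORA56 and SCARNA12 all shCtrl libraries lie together above the shMORC2 libraries.

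Among box H/ACA snoRNAs, SNORA56 changed most plainly. It lies at chrX:154774998-154775126 on the plus strand, in an exon of DKC1 in the deposited annotation; DKC1 encodes dyskerin, the pseudouridine synthase of the H/ACA particle itself. In its sequence capitals mark the first ANANNA hexamer near the middle, the form of box H, and the ACA at the end.
SNORA56: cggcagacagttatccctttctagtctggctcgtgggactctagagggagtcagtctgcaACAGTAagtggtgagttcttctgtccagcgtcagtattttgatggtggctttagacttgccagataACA
It had 55, 51 and 52 counts in shCtrl and 20, 24 and 16 in shMORC2, with no overlap (−1.40 ± 0.28 SE, edgeR adjusted p = 0.00153), and was called in all 6 fits without a library. SNORA11 combines loci on 6 chromosomes and rose, from 21, 25 and 13 to 43, 33 and 66 counts (1.25 ± 0.35, edgeR adjusted p = 0.0121), a call lost without shMORC2 3 (adjusted p = 0.0787). SNORA63, also on 6 chromosomes and under the mean of 30 counts, had 41, 31 and 39 against 22, 23 and 14 (−0.92 ± 0.32, edgeR adjusted p = 0.0339; 0.1001 without shCtrl 3), and was called in 2 of the 6 fits.

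The other box H/ACA snoRNAs of highest RPKM were not called. SNORA61 had 60, 33 and 57 counts against 60, 58 and 52 (0.17), SNORA7A 55, 56 and 43 against 74, 83 and 49 (0.41), and SNORA17A 39, 42 and 23 against 25, 32 and 32 (−0.23). Each overlapped between groups, with edgeR adjusted p of 0.639, 0.209 and 0.588.

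Both called scaRNAs fell. SCARNA12 lies at chr12:6967337-6967606 on the minus strand, in an exon of PHB2, a mitochondrial prohibitin. Its sequence is printed as the best-counted scaRNA that changed, with TGATG and CTGA in capitals.
SCARNA12: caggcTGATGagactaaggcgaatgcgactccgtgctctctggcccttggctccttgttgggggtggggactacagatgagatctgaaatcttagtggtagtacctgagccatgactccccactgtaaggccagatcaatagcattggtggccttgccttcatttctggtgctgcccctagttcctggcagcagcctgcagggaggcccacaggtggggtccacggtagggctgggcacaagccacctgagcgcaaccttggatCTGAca
It had 174, 123 and 141 counts in shCtrl and 70, 81 and 88 in shMORC2, with no overlap (−0.88 ± 0.19 SE, edgeR adjusted p = 0.00217). SCARNA2, a guide for U2 spliceosomal RNA made from its own promoter, had 13, 22 and 16 against 2, 4 and 2 counts (−2.63 ± 0.54, edgeR adjusted p = 0.00182). Both were called in all 6 fits without a library. SCARNA15, which combines 4 chromosomes and held 42.1% of the class's counts, had 193, 152 and 133 against 151, 147 and 119 (−0.21, edgeR adjusted p = 0.352). SCARNA10, SCARNA16, SCARNA17 and SCARNA22 had 4 to 20 counts per library and log2 fold changes from −0.50 to −0.26, none of them called.

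The host genes were read far more deeply. SNHG1, the host of SNORD22 and its neighbours, had 1072, 1299 and 1012 counts in shCtrl and 791, 627 and 555 in shMORC2. Every shMORC2 library was lower (−0.80 ± 0.12 SE, edgeR adjusted p = 0.000253). SNHG4, host of SNORA74A, had 918, 725 and 800 against 582, 468 and 497 (−0.67 ± 0.11, edgeR adjusted p = 0.000265), and SNHG10, host of SCARNA13, 283, 244 and 261 against 180, 163 and 156 (−0.67 ± 0.13, edgeR adjusted p = 0.00114).

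SNHG16, host of the SNORD1 family, had 1669, 1846 and 1760 counts in shCtrl and 1141, 1253 and 1239 in shMORC2 (−0.55 ± 0.089 SE, edgeR adjusted p = 0.000342). SNHG7 and SNHG12 fell by 0.60 and 0.58 on the log2 scale (edgeR adjusted p = 0.00219 and 0.00156). SNHG8, host of SNORA24, fell by 0.38 (570, 732 and 601 against 495, 477 and 505 counts, edgeR adjusted p = 0.0168), a call lost without shCtrl 2 or without shMORC2 2. None of these 7 hosts overlapped between groups, and the first 6 were called in all 6 fits without a library.

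SNHG5, a host of U50 snoRNAs, was the only host that rose. It had 3350, 3424 and 3245 counts in shCtrl and 5161, 4550 and 4974 in shMORC2, or 78.8 ± 2.27 and 114 ± 4.21 CPM (SD, n = 3 each). The increase of 0.54 ± 0.072 (log2, SE; edgeR adjusted p = 8.25e-05) was called in all 6 fits without a library. GAS5, the most abundant host with 26.9% of the class's counts, was not called: 5689, 6684 and 5849 against 6373, 6798 and 6547 counts (0.10, edgeR adjusted p = 0.387). SNHG6, at 3037 to 4122 counts per library (−0.10), and SNHG3, at 2468 to 2782 (0.04), also overlapped between groups.

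The other uncalled hosts were SNHG22, SNHG17, SNHG15, SNHG19, SNHG20, SNHG21, SNHG11, SNHG14, SNHG25 and SNHG9. Their log2 fold changes ran from −0.27 for SNHG22 to 0.94 for SNHG9, the least counted of them (4, 2 and 15 against 10, 19 and 12 counts). SNHG9 was called without shCtrl 3 (edgeR adjusted p = 0.0240). SNHG22 and SNHG14 did not overlap between groups and missed the threshold (edgeR adjusted p = 0.187 and 0.120).

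**Figure D4:**
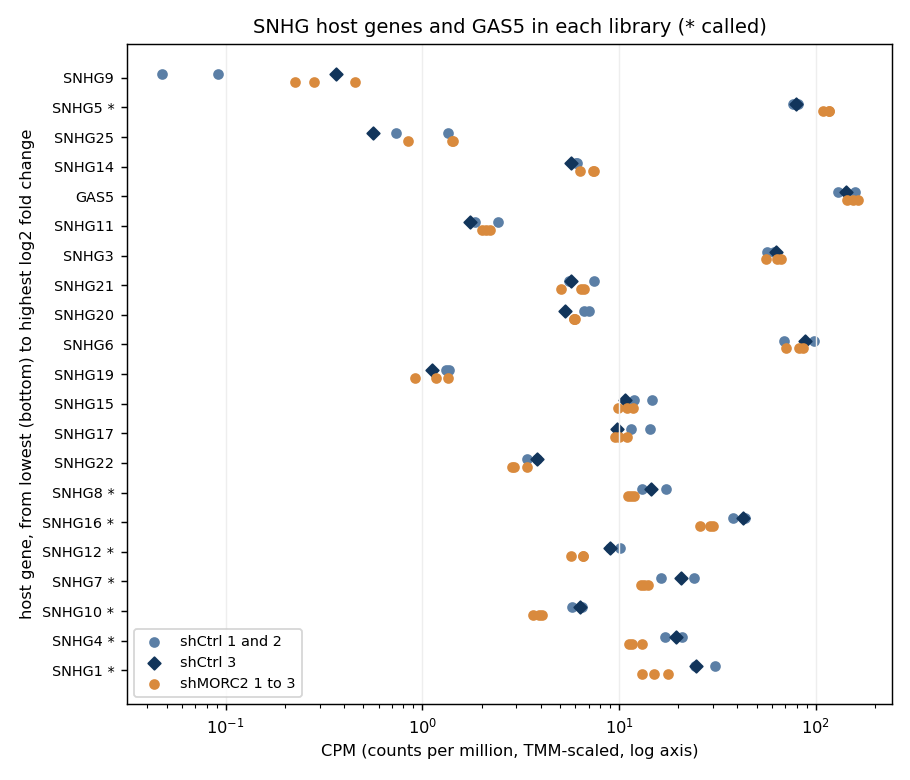
CPM (log axis) of the 21 tested host genes in each library, ordered by log2 fold change, with called hosts starred. The 7 lowest rows show the shMORC2 libraries (orange) below all shCtrl libraries (blue; diamond, shCtrl 3), SNHG5 shows them above, and GAS5, SNHG3 and SNHG6 show them intermixed.

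Many hosts begin transcription in a run of pyrimidines, like ribosomal protein genes. The windows from 10 bases before to 30 after the start (RefSeq, GRCh38.p14) are shown for the 8 called hosts because the genes moved in both directions, with CTTT in capitals where it starts within the first 27 bases. They lie at chr11:62855856-62855895 minus (SNHG1), chr5:139274091-139274130 plus (SNHG4), chr14:95534843-95534882 minus (SNHG10), chr9:136728155-136728194 minus (SNHG7), chr1:28581844-28581883 minus (SNHG12), chr17:76557754-76557793 plus (SNHG16), chr4:118278752-118278791 plus (SNHG8), chr6:85678704-85678743 minus (SNHG5).
SNHG1: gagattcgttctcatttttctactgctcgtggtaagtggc
SNHG4: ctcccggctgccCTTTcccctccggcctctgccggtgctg
SNHG10: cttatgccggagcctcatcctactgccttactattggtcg
SNHG7: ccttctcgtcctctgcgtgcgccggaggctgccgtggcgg
SNHG12: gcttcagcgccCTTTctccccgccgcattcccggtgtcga
SNHG16: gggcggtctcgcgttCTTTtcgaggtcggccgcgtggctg
SNHG8: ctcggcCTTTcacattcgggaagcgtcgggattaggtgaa
SNHG5: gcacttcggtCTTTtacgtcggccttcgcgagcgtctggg

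The letters CTTT, searched on the gene's strand from 10 bases before to 20 after the start, were found in 5 of these 8 windows. They were found in 6 of the 17 tested hosts that had a RefSeq window and in 3311 of 27305 genes (12.1%). SNHG5, which rose, held the match, as did SNHG4, SNHG8, SNHG12 and SNHG16, which fell. The match therefore did not part the host that rose from those that fell.

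Values of nested RNAs were set beside those of their hosts for the 56 tested snoRNAs and scaRNAs that lay on 1 chromosome inside a tested host (42 hosts). Log2 fold changes of both had the same sign in 43 pairs, with Pearson r = 0.51 and Spearman rho = 0.44 across pairs, as a description only: pairs are not independent, 45 of them lie in host exons whose reads were counted for both, and some share a host. Over those 45 pairs r was 0.55, and over the 11 intronic pairs −0.088 (rho 0.27). SNORD3D and its host (−2.21 and −2.19), an exonic pair, had the lowest value on both sides. SNORD3D made up 98.4% of that host's counts, so the pair largely sets the same reads against themselves. The correlation without it was not computed. The median change was −0.47 for the nested RNAs and −0.12 for their hosts.

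SNORD22 moved with SNHG1 (−0.76 and −0.80), and its share of SNHG1 did not separate the groups. SNORD25 and SNORD26, in the same gene, had −0.68 and −0.49 and were not called, while SNORD27, of which 1 of 2 loci lies in SNHG1, had −2.12 (edgeR adjusted p = 0.00838). Several called snoRNAs lay in a host that was not called: SNORD35A and RPL13A (−1.59 and −0.02), SNORA56 and DKC1 (−1.40 and −0.03), SNORD49B and the non-coding LRRC75A-AS1 (−0.50 and −0.06). Other called small RNAs lay in a host that was itself called lower. SNORD10 and EIF4A1, a translation helicase, had −1.77 and −0.31 (edgeR adjusted p of the host 0.00650). SNORD19B and GNL3, a nucleolar GTPase, had −1.71 and −0.29 (edgeR adjusted p of the host 0.00934). SCARNA12 and PHB2 had −0.88 and −0.26 (edgeR adjusted p of the host 0.0187). PHB2 was not called without shCtrl 3 (edgeR adjusted p = 0.0933). These hosts are named as the hosts of called snoRNAs. In each of those 6 pairs the ratio of the nested RNA to its host was lower in every shMORC2 library than in any shCtrl library. The pairs were named for a called snoRNA, so the lower ratio is partly set by that choice. SNORD15A and RPS3 (−1.13 and −0.04) and SNORD57 and NOP56 (−0.43 and −0.12) also paired a called snoRNA with an uncalled host, and their ratios overlapped between groups.

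Of all tested genes taken singly, 50.2% did not overlap between groups, and no such share was computed for ratios of other gene pairs. The ratio separated the groups in 16 of the 56 pairs, lower in shMORC2 in 11 and higher in 5. SNORA61 in SNHG12 was among the latter: it stayed at 33 to 60 counts while its host fell, and held 16.0% of the host's counts. SNORD84 (0.96) also rose above its host DDX39B, an RNA helicase (0.23, edgeR adjusted p = 0.0226, and 0.0698 without shCtrl 3). The other gene model that contained SNORD84, ATP6V1G2-DDX39B, rose by 0.41 (edgeR adjusted p = 0.000837, and 0.00447 without shCtrl 3). SNORD118, the U8 snoRNA of large-subunit maturation, had 8, 4 and 15 against 27, 13 and 9 counts (0.82, edgeR adjusted p = 0.250; named after its value was seen) inside TMEM107, which rose by a like amount (0.85, edgeR adjusted p = 0.00114).

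**Figure D5:**
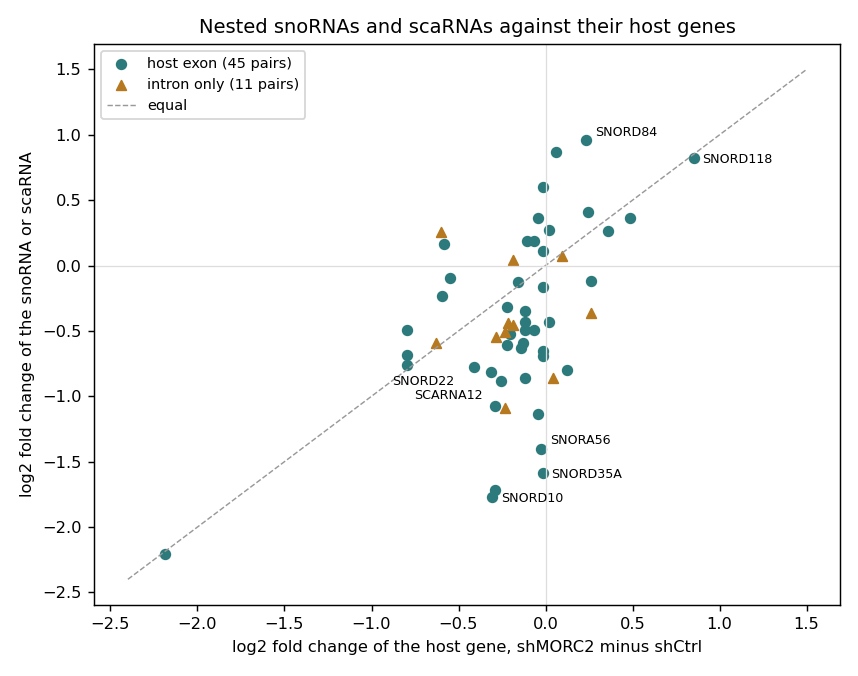
Log2 fold change of each nested snoRNA or scaRNA against that of its host gene (shMORC2 minus shCtrl) for 45 pairs overlapping a host exon (circles) and 11 pairs in introns only (triangles), with the line of equal change. SNORD10, SNORD35A and SNORA56 lie far below the line, while SNORD22 and SNORD118 lie close to it; the lowest point, SNORD3D, makes up 98.4% of its host's counts.

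Hosts outside the SNHG family numbered 136, of which 125 were tested, and 17 rose and 46 fell (50.4% called, against 39.5% of all genes; median −0.13). Without shCtrl 3, 48 of these hosts were called, against 31.8% of all genes. Overlapping gene models, whose reads can be counted for each, stood as separate hosts in these numbers. EIF4A1 and SENP3-EIF4A1 were both called lower, for example, and DDX39B and ATP6V1G2-DDX39B both higher. The share called without such repeats was not computed. Of the 25 hosts taken as ribosomal protein genes, 8 rose and 2 fell (40.0%, median 0.02). RACK1, not named as a ribosomal protein gene, was counted among the 25 and rose (0.49). Of the remaining 100 tested hosts, 9 rose and 44 fell (53.0%, median −0.20). The highest called were TMEM107, RPS13 (0.77 ± 0.077 SE, edgeR adjusted p = 8.13e-06), a small-subunit protein, and the translation factor EIF5 (0.56 ± 0.086, edgeR adjusted p = 0.000223). The lowest were the non-coding gene around SNORD3D (−2.19), another non-coding gene without an approved symbol (−1.54) and RASSF3 (−1.06 ± 0.090, edgeR adjusted p = 2.22e-06), from 38.5 ± 3.21 to 18.4 ± 1.12 CPM (SD, n = 3 each).

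Of the hosts with the most intronic snoRNAs, WDR43, which takes part in small-subunit processing and holds SNORD53 and SNORD92, fell (−0.44 ± 0.098 SE, edgeR adjusted p = 0.00326), as did PRRC2B (−0.19, edgeR adjusted p = 0.0480; 0.163 without shCtrl 3). PRRC2B and RCC1 were 2 of several hosts tied at 2 intronic snoRNAs, taken by sort order. KANSL2 (−0.24), RPL17-C18orf32 (0.03) and RCC1 (−0.05) were not called (edgeR adjusted p = 0.0518, 0.820 and 0.674), although KANSL2 was called lower with the replicate block (adjusted p = 0.0157). MEG8, with 9 intronic snoRNAs of the SNORD113 group, was not tested, with 1 library above 0 (0.0480 CPM).

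The proteins that build, trim or degrade these RNAs were described from a list of 52 genes, of which 8 rose and 12 fell (38.5% called, near the 39.5% of all genes). Without shCtrl 3, 14 of the 52 were called, against 31.8% of all genes. With the replicate block 27 were called, and no share of all genes was counted for that fit. Of the 8 core proteins of both particles, 5 rose and none fell, where 19.9% of all genes rose and 19.6% fell. For the H/ACA particle, NOP10 rose from 32.4 ± 2.91 to 61.9 ± 2.12 CPM (SD, n = 3 each; log2 fold change 0.93 ± 0.084 SE, edgeR adjusted p = 3.47e-06), NHP2 by 0.41 (edgeR adjusted p = 0.00267) and GAR1 by 0.31 (edgeR adjusted p = 0.0408; 0.0940 without shCtrl 3), while DKC1 was not called (−0.03). For the C/D particle, the methyltransferase FBL rose by 0.33 (edgeR adjusted p = 0.00464) and SNU13, which binds the box C/D turn, by 0.25 (edgeR adjusted p = 0.0299). NOP56 (−0.12) and NOP58 (−0.21) were not called (edgeR adjusted p = 0.433 and 0.220), but NOP58 was called lower with the replicate block (−0.21, adjusted p = 0.00360).

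Of 11 assembly factors, PIH1D1 rose (0.36) and RUVBL2 fell (−0.30). Of 10 Cajal body and cap genes, 5 fell and none rose: the cap hypermethylase TGS1 (−0.24), the nucleolar phosphoprotein NOLC1 (−0.27), TCOF1 (−0.23), the SMN partner GEMIN2 (−0.31) and the cap-binding NCBP2 (−0.30). TGS1, TCOF1 and GEMIN2 were not called without shCtrl 3 (edgeR adjusted p = 0.0928, 0.0815 and 0.123). That left 2 of the 5, in a fit that called 31.8% of all genes. Of 11 genes of end trimming and the exosome, the nuclease DIS3 (−0.42), the poly(A) polymerase PAPD5 (−0.27), the helicase SKIV2L2 (−0.27) and ZCCHC7 (−0.49) fell, and DBR1, which opens intron lariats, rose (0.40). PAPD5 was not called without shCtrl 3 (edgeR adjusted p = 0.0991). Of 12 genes of nonsense-mediated decay and RNA turnover, the kinase SMG1 (−0.74 ± 0.088 SE, edgeR adjusted p = 3.36e-05) and the exonuclease XRN1 (−0.52, edgeR adjusted p = 0.00107) fell and the endonuclease SMG6 rose (0.23, edgeR adjusted p = 0.0324; 0.157 without shCtrl 3). No protein or RNA modification was measured.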

How the data were processed

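MRNA of 6 SW480 libraries (3 shCtrl, 3 shMORC2) was sequenced with a stranded kit that adds molecular identifiers. The submitters' processing notes name Trimmomatic 0.36, STAR 2.5.3a, featureCounts (Subread 1.5.1), edgeR 3.12.1 and GRCh38. The strand setting, the handling of multimapping reads and the collapsing of identifiers were not given in the sources used here. The authors deposited raw counts per gene symbol and RPKM computed from them. A deposited splicing table with the authors' own comparison was not used. The tables held 0 columns of samples outside the series.

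The main test was the quasi-likelihood F test of edgeR 4.0.16 under R 4.3.3 (low counts removed by filterByExpr, TMM library scaling, group as the sole term, Benjamini-Hochberg adjustment over 21005 genes, called under 0.05); the SE is the log2 fold change over the square root of F. CPM used TMM-scaled library sizes. A host was a same-strand gene of at least 400 exonic bases spanning the small RNA; ratios to hosts used a pseudocount of 0.5. DESeq2 1.42.0, limma 3.58.1 on log2(RPKM + 1 or 0.1) and left-out libraries were alternatives. Same-numbered libraries deviated together (r = 0.215, 0.111 and 0.102; other pairings −0.156 to 0.0527), so a fit with the replicate number as a block was set beside the main fit, which has no block; its value is given where it changes a call named here. The labels do not state what the number stands for. The study describes 3 replicate experiments per group and calls them independent. Neither it nor the labels say that libraries came from separate cultures. The p-values therefore measure the spread between these libraries, which may be technical. The members and lists were chosen with earlier results of these data known. The rule named tested hosts and scaRNAs, per snoRNA class the 6 lowest and 6 highest called members averaging 30 counts or more and the 4 of highest RPKM, the core proteins and called genes of the pathway list, and, of the other hosts, the 6 with most intronic snoRNAs (ties taken by sort order) and the 3 lowest and 3 highest called.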

Additional observations from a re-analysis of the deposited data

How the results depend on the processing

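The number of box C/D snoRNAs called (13 of 53 tested) was 8 of 64 with DESeq2 and 7 of 11 at a mean of 1 CPM or more. With limma it was 26 and 25 of 84 on log2(RPKM + 1) and log2(RPKM + 0.1). Leaving out 1 library gave 6 to 11 of 53, lowest without shMORC2 3 (6) and without shCtrl 3 (8). For box H/ACA snoRNAs (3 of 28) it was 5 of 106 without the filter on low counts and 5 of 28 with the replicate block. At a mean of 1 CPM it was 0, where edgeR tested 6 and 1 had an unadjusted p under 0.05. DESeq2 called 2 of 35. For scaRNAs (2 of 7) it was 1 of 2 at a mean of 1 CPM and 1 of 2 with limma at either pseudocount. The share of all genes called was counted only for the main fit (39.5%) and without shCtrl 3 (31.8%). A log2 fold change of at least 1 left 1 scaRNA, 0 SNHG hosts (of 8), 3 other hosts (of 63) and 0 pathway genes (of 20). Pathway calls ran from 11 to 22 without a library, with 11 without shMORC2 2 and 12 without shMORC2 3. With the replicate block, 8 SNHG hosts, 79 other hosts and 27 pathway genes were called. The share of all genes called in that fit was not counted, so these numbers cannot be set against it. The cause of these changes was not tested, beyond the fewer genes that a stricter filter or fold leaves.

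The log2 ratio of summed box C/D level (−0.77) was −0.41 without the 5 U3 copies and −0.39 without them and shCtrl 3, both chosen after seeing the data, and −0.92 to −0.47 without a library, −0.47 being the value without shCtrl 3. Without members on several chromosomes the H/ACA ratio (−0.27) was −0.35 and the scaRNA ratio (−0.52) −0.79; the latter was −0.68 as summed RPKM and −0.75 without SCARNA15. The summed host level (−0.02) ran from −0.077 to 0.038 without a library, above 0 without shCtrl 2 (0.038) or shMORC2 1 (0.00555).

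Leaving out 1 library turned the sign of 13 log2 fold changes: SNORA61 from −0.059 to 0.30, SCARNA16 from −0.54 to 0.022, SNHG3 from −0.014 to 0.12, SNHG21 from −0.11 to 0.11, SNHG11 from −0.018 to 0.23, SNHG6 from −0.22 to 0.014, RPL13A from −0.10 to 0.036, and RPS3 from −0.11 to 0.0062, RN7SK from −4.35 to 0.33, RPL17-C18orf32 from −0.033 to 0.073, RCC1 from −0.11 to 0.0054, NOP56 from −0.20 to 0.028, DKC1 from −0.073 to 0.028. Of these only RN7SK was called with all libraries. Another 1109 values of single genes kept direction and side of the threshold, 130 lost the call and 18 gained it. Of the 53 box C/D snoRNAs tested, 36 had means under 30 counts, and the part of depth in the calls was not tested.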
